A study of Mus musculus with 187 samples.

Results

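The Ifi200 genes lie side by side on mouse chromosome 1 and encode PYHIN proteins, most of which join an N-terminal pyrin domain to a C-terminal HIN domain that binds DNA. The 6 genes described here, Ifi202b, Ifi203, Ifi204, Ifi205, Ifi207 and Mndal, were selected by name, for how their levels differed among strains, from 36558 genes in the deposited heart tables. Hearts came from the Hybrid Mouse Diversity Panel, which joins classical inbred strains with families of recombinant inbred lines. All mice were 16 weeks old, after 8 weeks on chow and 8 weeks on a diet rich in fat and sucrose. The series held 98 libraries from males and 89 from females, and per the labels each library was made from 1 mouse. The strains comprised 45 BXD lines (from C57BL/6J and DBA/2J), 20 AXB/BXA lines (A/J and C57BL/6J), 6 CXB lines (BALB/cJ and C57BL/6J), 6 BXH lines (C57BL/6J and C3H/HeJ) and 29 inbred strains, the parents of these families among them. Both sexes were present for 78 strains, nearly always with 1 library of each sex, so that the spread within a strain here is the spread between a male and a female mouse.

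The Ifi200 genes are transcribed in response to interferons, the cytokines released after a virus or misplaced DNA is sensed. Their products have been linked to DNA sensing, to the restraint of cell growth and to transcriptional control. IFI204 has a pair of HIN domains and signals through STING, whereas IFI202 has HIN domains without a pyrin domain and is known as an antagonist of the AIM2 inflammasome. Ifi202b is also known as a candidate gene for lupus in crosses with New Zealand Black mice, in which its level differs from that of C57BL/6. The family has expanded differently in different mouse strains, and its members are close copies of one another, which bears on how short reads are assigned.

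On GRCm38 all 6 genes are on the minus strand of chromosome 1. In the order of the chromosome they are Ifi207 (chr1:173723427-173741747), Ifi204 (chr1:173747293-173766943), Mndal (chr1:173849126-173942491), Ifi203 (chr1:173920407-173942672), Ifi202b (chr1:173962568-173982744) and Ifi205 (chr1:174011998-174031810). The annotated span of Mndal overlaps that of Ifi203. The reference sequence is that of C57BL/6J, so strain differences in sequence are not visible in it.

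Promoter windows, from 250 bases before to 50 bases after the start of a gene, were taken from RefSeq (GRCm38.p6) and are written 5′ to 3′ on the strand of the gene. Windows were listed for 5 of the 6 genes, with none for Ifi204 and 2 each for Mndal and Ifi203. They are shown for Ifi202b, Mndal and Ifi205 because the levels of Mndal and Ifi205 moved together across strains and that of Ifi202b moved against them, as described in the results that follow. Capitals in Mndal and Ifi205 mark letters that match GAAANNGAAA, the core of an interferon-stimulated response element (ISRE), on either strand. The window of Mndal that is not shown, at chr1:173879909-173880208, overlaps the one shown and holds another such match, on the other strand. Both windows of Mndal lie inside its annotated span given above, which on the minus strand starts at 173942491. The annotations thus place the start of Mndal differently. The letters GAAANNGAAA are not in this window of Ifi202b, where capitals mark TTCNNNGAA, the letters of a gamma-activated site.
Ifi202b (chr1:173982795-173983094, minus strand): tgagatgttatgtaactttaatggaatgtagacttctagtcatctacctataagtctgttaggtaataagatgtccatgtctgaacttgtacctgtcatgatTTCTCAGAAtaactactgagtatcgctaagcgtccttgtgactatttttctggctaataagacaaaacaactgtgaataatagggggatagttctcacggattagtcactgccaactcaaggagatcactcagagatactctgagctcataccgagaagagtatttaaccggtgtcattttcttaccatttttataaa
Mndal (chr1:173880138-173880437, minus strand): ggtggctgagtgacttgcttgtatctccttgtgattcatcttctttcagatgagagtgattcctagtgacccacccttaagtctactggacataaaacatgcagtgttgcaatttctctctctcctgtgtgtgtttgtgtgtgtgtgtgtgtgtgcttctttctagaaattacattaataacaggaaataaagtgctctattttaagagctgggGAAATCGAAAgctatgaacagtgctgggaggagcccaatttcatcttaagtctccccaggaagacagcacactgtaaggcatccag
Ifi205 (chr1:174031706-174032005, minus strand): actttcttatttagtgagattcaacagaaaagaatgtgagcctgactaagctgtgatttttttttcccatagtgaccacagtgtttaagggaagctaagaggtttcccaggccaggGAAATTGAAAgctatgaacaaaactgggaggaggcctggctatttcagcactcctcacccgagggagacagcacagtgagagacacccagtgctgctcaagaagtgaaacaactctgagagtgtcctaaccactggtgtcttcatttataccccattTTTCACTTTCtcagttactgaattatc
The ISRE-like letters occurred in 3.44% of 32851 RefSeq promoter windows of this length, and TTCNNNGAA in 8.3%. Among the 5 members with a window, GAAANNGAAA was found in at least 1 window of Ifi203, Ifi205, Ifi207 and Mndal. A match describes letters and not a bound site, and no match says only that these letters are not in the window.

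The members share sequence to unequal degrees, which sets how far each level can be told apart from its neighbours. The authors estimated counts with kallisto, which divides a read among all transcripts that could have given it. Transcripts were compared here by words of 31 bases. In the annotated transcripts, 98.8% of the 1667 words of Ifi202b occurred in no other gene. The share was 85.2% for Ifi207, 78.1% for Ifi203, 77.9% for Ifi205, 71.3% for Mndal and 65.4% for Ifi204. Mndal shared 24% of its words with other members, most of them with Ifi205 (381 words), Ifi203 (321) and Ifi204 (295). The 2 longest identical coding stretches between Mndal and another member are shown because a read that falls within one cannot be assigned to either gene from its sequence. The stretch of Ifi205 and Mndal is also in Ifi211, a further gene of the cluster, which shared 437 words with Mndal. Both stretches come from GENCODE M21 transcripts (GRCm38).
Ifi205 and Mndal: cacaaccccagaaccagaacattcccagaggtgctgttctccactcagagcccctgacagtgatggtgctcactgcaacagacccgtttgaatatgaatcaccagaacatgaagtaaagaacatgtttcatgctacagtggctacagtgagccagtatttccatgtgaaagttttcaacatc
Ifi204 and Mndal: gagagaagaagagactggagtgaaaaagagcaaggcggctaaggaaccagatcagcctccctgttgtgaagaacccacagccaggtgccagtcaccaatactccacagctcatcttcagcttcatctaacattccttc
Ifi202b stood apart in the estimated counts as well. A count that is not whole marks a divided read, and with a tolerance of 0.01 only 2.1% of the counts of Ifi202b were not whole, against 95.7% for Mndal, 96.8% for Ifi205, 98.4% for Ifi204 and Ifi207, and 99.5% for Ifi203. Over all genes and libraries the share was 34.1%. That share used a finer tolerance and includes unexpressed genes, whose counts of 0 are whole, so it is not a like measure. The counts of Ifi202b were thus nearly all whole, and those of the other 5 genes were nearly all divided. Alleles of other strains were aligned to transcripts of C57BL/6J, and the effect of this on the counts was not tested.

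Total counts per library ranged from 28.99 M to 80.44 M (median 45.38 M), so that 3 counts, the limit that a count of 0 allows, correspond to between 0.0373 and 0.1035 CPM (counts scaled to library size). Heart tissue was evident in every library: 5 cardiomyocyte genes (Myh6, Tnnt2, Actc1, Tnni3, Ryr2) summed to between 29505 and 62272 CPM. Libraries of 2 inbred strains stood apart. Among 19 genes outside the cluster that were lower in the A/J female than in C57BL/6J by at least 3 on the log2 scale, the library labelled A/J male held a median of 24.4% of the C57BL/6J level. The same value, taken for each strain over its own such genes, lay between 3.3% and 8.9% in the other inbred males apart from RIIIS/J, at 58.1%. Results that rest on the A/J male are given with and without it, and RIIIS/J is given by library.

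Per transcript length, the members differed in abundance. The median over libraries was 13.8 TPM (transcript abundance scaled within each library and divided by length) for Ifi203 and 10.3 for Mndal, followed by 2.48 for Ifi204, 2.38 for Ifi207, 2.36 for Ifi205 and 1.36 for Ifi202b. All other levels are in CPM scaled to library sizes by TMM, and compare libraries for the same gene. In whole hearts, more cells of a type that expresses a gene and more RNA per cell cannot be told apart.

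The 6 genes showed 3 patterns across strains. Ifi202b was either on or off. Mndal was either high or low, and Ifi205 varied widely in the same direction as Mndal. Ifi203, Ifi204 and Ifi207 were expressed in every library and varied less. These patterns chose the genes, so they are described without a test.

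**Figure D1:**
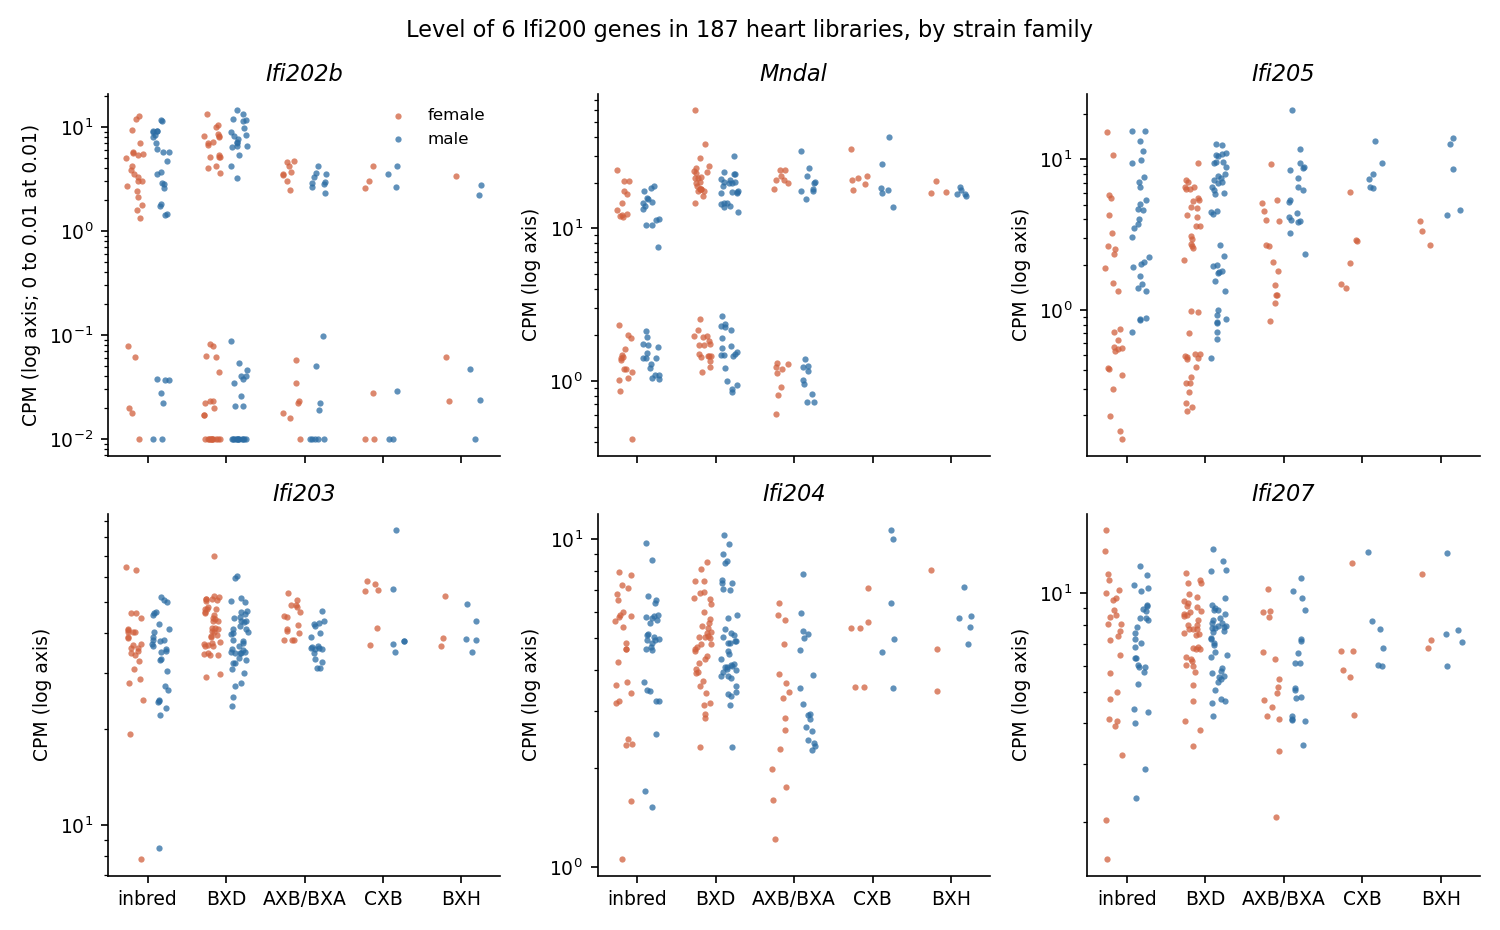
Each point is 1 library, placed by strain family and sex; the vertical axes give CPM on a log scale, with Ifi202b values under 0.01 drawn at 0.01. Ifi202b leaves a gap between 0.099 and 1.335 CPM and Mndal forms an upper and a lower band, whereas Ifi203, Ifi204 and Ifi207 each form 1 band, with the 2 C3H/HeJ libraries below it for Ifi203.

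Ifi202b encodes the HIN-only protein of the family. It was off in 46 strains, in which 83 libraries held 0 to 0.099 CPM, and on in 60 strains, in which every library held 1.335 to 14.6 CPM. No library lay between. In the libraries of off strains, 81 counts were found in all, at most 5 in a library, and 37 libraries had none. Their pooled level was 0.0211 CPM (95% exact Poisson interval 0.0168 to 0.0263, counting error only). The pooled level of the on libraries was 5.74 CPM, 272-fold higher (218 to 342 by the same interval).

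In C57BL/6J, Ifi202b was at 0.02 CPM in the female and at 0.028 and 0.037 CPM in the 2 males, from 4 counts in total. In NZB/BlNJ, the New Zealand Black strain, it was at 5.64 CPM in the female and 7.95 in the male. DBA/2J held 11.9 CPM in the female and 11.5 in the male, BALB/cJ 2.14 and 2.92, and A/J 2.69 and 1.44. C3H/HeJ was off, with 0 in the female and 0.022 CPM in the male. Among the 29 inbred strains, 5 were off: C57BL/6J, C57BLKS/J, C3H/HeJ, MA/MyJ and NZW/LacJ. Thus the New Zealand Black and New Zealand White strains differed, with NZW/LacJ at 0.061 CPM in the female and 0 in the male. The on strains were themselves graded, from 1.33 CPM in LP/J (1 female) to 13.4 CPM in BXD8/TyJ (1 male). No step within this range, between strains next to each other in the order, exceeded 0.73 on the log2 scale. The step between off and on was 3.55. The value of 0.73 is the within-strain SD over all 78 strains with both sexes. It includes off strains with few or no counts, so it is not the spread of the on strains alone.

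Mndal, which encodes a protein related to human MNDA, was high in 58 strains, in which every library held 10.5 to 59.8 CPM. In the 48 low strains, 83 libraries held 0.415 to 7.59 CPM. The library labelled A/J male had the highest of these low values. Apart from it, every library of a low strain was at or below 2.68 CPM. C57BL/6J held 24.2 CPM in the female and 17.7 and 19.04 CPM in the males. NZB/BlNJ held 1.43 CPM in the female and 1.42 in the male, and DBA/2J 2.00 and 2.12. BALB/cJ was high, with 17.5 CPM in the female and 15.6 in the male, and C3H/HeJ was low, with 1.15 and 1.04. The A/J female was at 0.861 CPM and the library labelled A/J male at 7.59. The extremes were the females of BXD73/RwwJ (59.8 CPM, against 20.8 in its male) and of RIIIS/J (0.415 CPM, against 1.03 in its male).

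The size of the Mndal difference depended on the unit. DBA/2J was lower than C57BL/6J on the log2 scale in CPM (-3.37) and in TPM (-1.77). TPM divides by transcript length, and Mndal has 10 annotated transcripts. Its TPM relative to CPM differed between strains, with 4.36 TPM for 2.06 CPM in DBA/2J and 14.9 TPM for 21.3 CPM in C57BL/6J. The direction was the same in both units, and so was the split of the recombinant inbred lines.

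Ifi205 had no gap. Its strain levels ran from 0.327 CPM in BXD5/TyJ (1 female) to 15.3 CPM in MA/MyJ, with libraries between 0.139 and 21.3 CPM. MA/MyJ held 15.1 CPM in the female and 15.5 and 15.3 CPM in the males. C57BL/6J held 5.52 CPM in the female and 13.3 and 7.08 CPM in the males. NZB/BlNJ held 0.548 CPM in the female and 1.34 in the male, and DBA/2J 0.745 and 3.72. The lowest C57BL/6J library was thus above both libraries of either strain. The between-strain SD was 1.47 on the log2 scale and the within-strain SD was 0.59. No step between strains next to each other in the order exceeded the latter.

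Ifi203 was the most even member, with a between-strain SD of 0.36 on the log2 scale, but C3H/HeJ and SJL/J stood below the other strains. C3H/HeJ held 7.82 CPM in the female and 8.5 in the male, and SJL/J 19.3 and 22.2. C57BL/6J held 41.01 CPM in the female and 38.0 and 37.8 CPM in the males, NZB/BlNJ 35.9 and 35.2, and DBA/2J 46.3 and 51.04. The highest level was that of the only CXB7/ByJ library, a male, at 84.4 CPM. The pseudogene Ifi203-ps, which shared 1084 words with Ifi203, was low in the same 2 strains, with 0.685 and 0.794 CPM in C3H/HeJ and 1.28 and 1.34 CPM in SJL/J, against a median of 10.3 CPM over all libraries. Reads of these 2 genes are divided by estimation, so that the drop of each cannot be placed on it alone.

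Ifi204 and Ifi207 rose and fell with each other. Their strain means correlated with r = 0.88 over all strains and 0.82 over the 45 BXD lines; the genes shared 243 words. Ifi204 ranged from 1.06 to 10.6 CPM over libraries and Ifi207 from 1.54 to 15.6 CPM. RIIIS/J was lowest for both, with 1.06 CPM in the female and 1.52 in the male for Ifi204 and 1.54 and 2.37 CPM for Ifi207. C57BL/6J held 4.81 CPM of Ifi204 in the female and 5.65 and 5.11 CPM in the males. NZB/BlNJ lay beside it, with 4.61 CPM in the female and 5.88 in the male. For Ifi207 the values were 8.02, 9.13 and 7.86 CPM in C57BL/6J and 8.56 and 7.05 CPM in NZB/BlNJ. The levels of these strains overlapped for both genes.

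**Figure D2:**
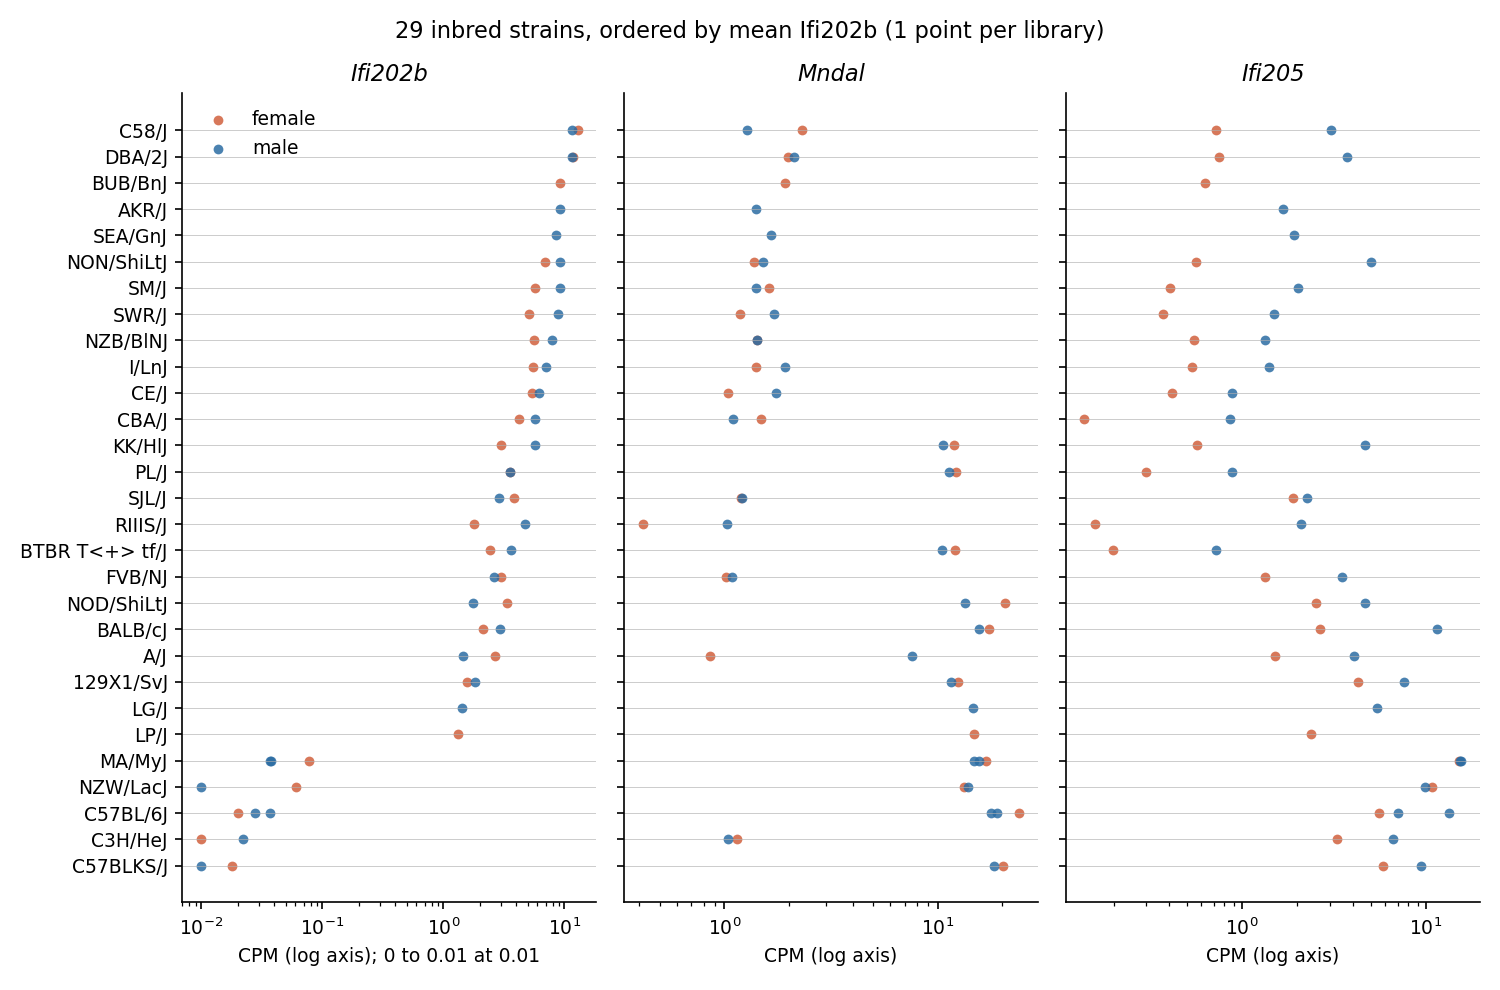
Levels of Ifi202b, Mndal and Ifi205 in the 29 inbred strains, in CPM on log axes, with 1 point per library coloured by sex and strains ordered by their mean Ifi202b. The 5 strains at the bottom are off for Ifi202b; 4 of them are high for Mndal and C3H/HeJ is low.

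Among the inbred strains the states of Ifi202b and Mndal occurred in every combination. Ifi202b was on and Mndal low in 16 strains, among them NZB/BlNJ, DBA/2J and A/J. Both were high in 8 strains: 129X1/SvJ, BALB/cJ, BTBR T<+> tf/J, KK/HlJ, LG/J, LP/J, NOD/ShiLtJ and PL/J. Ifi202b was off and Mndal high in 4 strains. C3H/HeJ was the only strain off for Ifi202b and low for Mndal. Ifi205 did not follow Mndal in every strain either. BTBR T<+> tf/J and PL/J were high for Mndal and had mean Ifi205 levels of 0.46 and 0.59 CPM.

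Recombinant inbred lines carry a mosaic of the genomes of the parents, so they show whether levels are passed on together. A line was placed with the parent whose mean log2 CPM was nearer, for a gene whose parental libraries did not overlap and whose parental means differed by at least 1. In the BXD family 3 genes met this rule. For Ifi202b, 24 lines were off as C57BL/6J was and 21 were on as DBA/2J was. No line lay in the middle part when the range between the parents on the log2 scale was cut into 3 equal parts, whereas on the linear CPM scale 13 lines did. The 44 libraries of the off lines held 0 to 0.09 CPM, and the 35 libraries of the on lines 3.24 to 14.6 CPM with a median of 7.23. For Mndal the split was again 24 to 21, with 12.9 to 59.8 CPM (median 19.8) on the side of C57BL/6J and 0.84 to 2.68 CPM (median 1.55) on the side of DBA/2J. All 45 lines were placed with the same parent by both genes. In each of the 34 BXD lines with both sexes, male and female lay on the same side for both genes.

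Ifi205 placed 25 BXD lines with C57BL/6J and 20 with DBA/2J, and 44 of 45 lines as Ifi202b did. The exception was BXD8/TyJ, a single male library with 4.57 CPM of Ifi205, 13.4 CPM of Ifi202b and 2.15 CPM of Mndal. Since Ifi205 was higher in males, the mean of each sex was also subtracted before lines were placed, a setting chosen after the data had been seen. All 45 lines were then placed as by Ifi202b. For 6 of the 34 lines with both sexes, male and female lay on opposite sides without this step.

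In the AXB/BXA family Ifi202b and Mndal each placed 10 lines with C57BL/6J and 10 with A/J, the same lines for both genes, and no line lay in the middle part. The off lines held 0 to 0.1 CPM of Ifi202b in 16 libraries, and the on lines 2.34 to 4.71 CPM in 17 libraries. Mndal was at 15.6 to 32.2 CPM and at 0.6 to 1.39 CPM in these sets of libraries. The library labelled A/J male, at 7.59 CPM, lay outside both ranges. Without it, Ifi202b and Mndal again each placed 10 lines with either parent, the same lines for both genes. Ifi205 placed 12 lines with C57BL/6J and 8 with A/J with or without that library, and BXA2/PgnJ and BXA13/PgnJ differed from their placing by Ifi202b. With that library left out, A/J rests on a single female, whereas C57BL/6J keeps both sexes. Since Ifi205 was higher in males, parent and sex then differ together. For 5 of the 13 lines with both sexes, male and female lay on opposite sides for Ifi205, whereas all 13 had both sexes on the same side for Ifi202b and for Mndal. With the mean of each sex subtracted, 3 lines differed and the split was 9 to 11, as it also was with a midpoint on the linear CPM scale. Without the A/J male, and so with a single A/J female, Ifi204 and Ifi207 also met the rule. They placed 19 and 18 of the 20 lines as Ifi202b did.

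In the CXB family only Ifi202b met the rule, since BALB/cJ is high for Mndal as C57BL/6J is. It placed 3 lines with each parent, with 0 to 0.03 CPM in 6 libraries and 2.59 to 4.2 CPM in 6 libraries. In the BXH family both parents were off for Ifi202b. BXH6/TyJ was nevertheless on, with 3.36 CPM in the female and 2.75 in the male, and so was BXH9/TyJ, with 2.2 CPM in its only library, a male. The other 4 BXH lines held at most 0.062 CPM. Ifi203 and Mndal met the rule in this family and placed all 6 lines with C57BL/6J. BXH6/TyJ held 20.4 and 16.7 CPM of Mndal, and BXH9/TyJ 16.4 CPM. These 2 lines thus had a combination of states that neither parent had, and that was seen in 8 inbred strains and 3 CXB lines. Other genes of the cluster placed the 3 libraries of BXH6/TyJ and BXH9/TyJ differently. Ifi206 was at 0.024 to 0.061 CPM in them, beside 0.022 and 0.033 CPM in C3H/HeJ and 0.673 to 1.192 CPM in C57BL/6J, and Ifi213 was at 0.202 to 0.343 CPM, beside 0.296 and 0.34 CPM in C3H/HeJ and 2.488 to 3.863 CPM in C57BL/6J. Ifi208 and Ifi209 were likewise below every C57BL/6J library. Ifi203-ps, at 7.213 to 7.69 CPM, was nearer to C57BL/6J (8.652 to 11.1 CPM) than to C3H/HeJ (0.685 and 0.794 CPM). Genotypes were not analysed here, and why these lines differ from their parents was not tested.

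**Figure D3:**
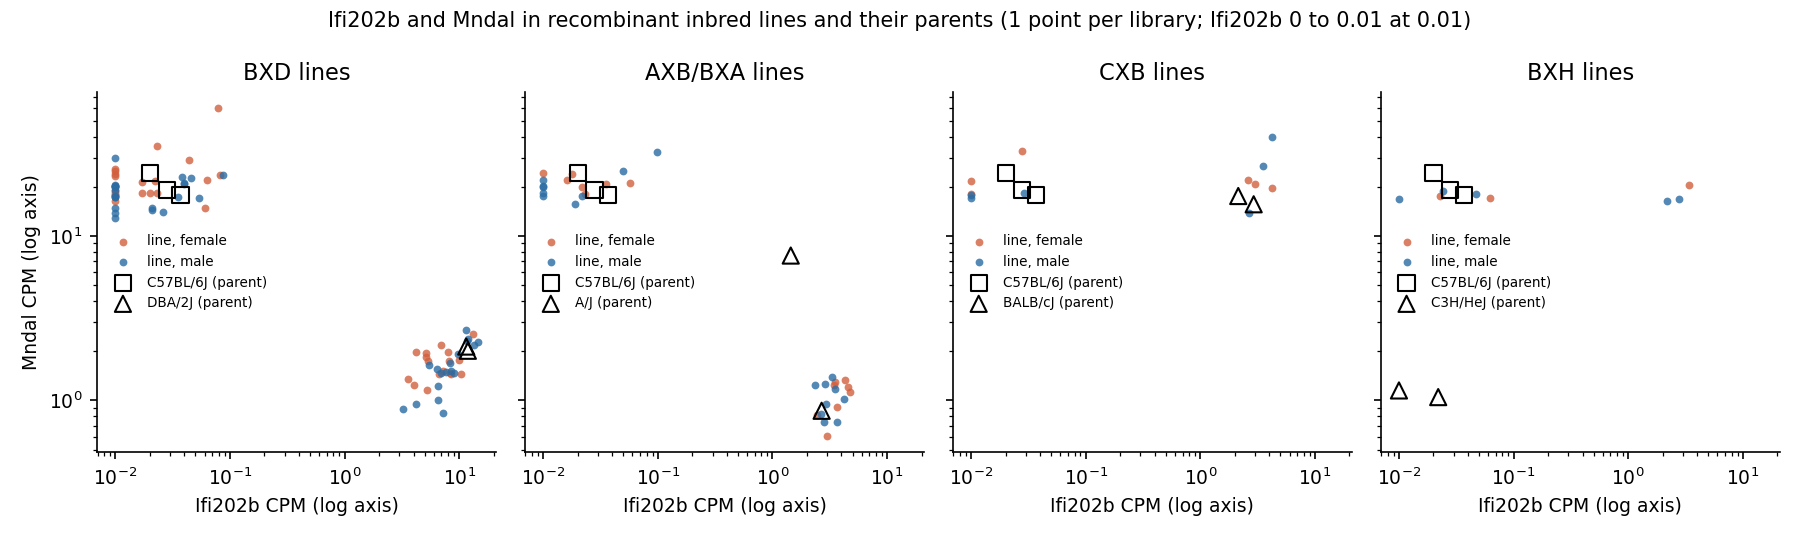
Ifi202b (horizontal) against Mndal (vertical) in CPM on log axes, with 1 point per library; small points are recombinant inbred lines, coloured by sex, squares are C57BL/6J and triangles the other parent. BXD and AXB/BXA lines fall on 2 clusters with no line between them, CXB lines on 2 clusters that overlap in Mndal, and 5 BXH libraries lie to the right of both parents, 2 of them at 0.047 and 0.062 CPM and the 3 of BXH6/TyJ and BXH9/TyJ at 2.2 CPM or more.

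The summed counts of all 6 genes did not meet the rule in the BXD family, with 6.36 in C57BL/6J and 6.33 in DBA/2J on the log2 CPM scale. It met the rule in the BXH family, with 6.36 in C57BL/6J and 5.12 in C3H/HeJ, and placed all 6 lines with C57BL/6J. Members also share words with other cluster genes, as Ifi203 does with Ifi203-ps (1084 words). The sum does not depend on how reads were divided among the members, but it does depend on their division with those genes. Within it Ifi202b was higher in DBA/2J, with a mean of 11.7 CPM against a pooled 0.0289 CPM in C57BL/6J (95% exact Poisson interval 0.0079 to 0.0741, counting error only), and Mndal was lower. How much of the difference in Mndal lies in the division of reads was not tested.

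The tables held 8 other PYHIN genes of the cluster: Aim2, which senses cytosolic DNA and forms an inflammasome, Ifi203-ps, Ifi206, Ifi208, Ifi209, Ifi211, Ifi213 and Ifi214. Their median levels ran from 0.068 CPM for Ifi206 to 2.74 CPM for Ifi211, with Ifi203-ps above them at 10.3 CPM. Over the 45 BXD lines, Mndal correlated with Ifi213 (r = 0.90), Ifi206 (0.89), Ifi208 (0.86), Ifi209 (0.86) and Ifi211 (0.82), and with Ifi205 (0.93). Ifi202b correlated with Aim2 (0.77) and Ifi203-ps (0.79), and inversely with Mndal (-0.96). Over all strains Ifi202b correlated with Mndal at r = -0.78, with Aim2 at 0.75 and with Ifi203-ps at 0.15, so that its correlation with Ifi203-ps was seen over BXD lines and hardly over all strains. Mndal shared words with Ifi205 and Ifi211 and none with Ifi206, Ifi208, Ifi209 or Ifi213, and Ifi202b shared none with any cluster gene. The points share library and depth, and the values are descriptions only. When the strain terms were tested jointly beside sex, over strains with both sexes (edgeR quasi-likelihood F test, Benjamini-Hochberg adjustment), 7 of these 8 genes differed among strains, Ifi214 being the exception, and 72.9% of all genes tested did.

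Outside the cluster, the 3 genes with the highest correlation over strain means were taken for each member. For Mndal and Ifi205 those named here were on chromosome 1. Over all strains the highest correlations of Ifi202b were with Gm12345 on chromosome 11 (r = 0.79), Atp1a4 (0.74) and Cadm3 (0.60), the last 2 lying at chr1:172223513-172258414 and chr1:173333258-173367695. For Mndal they were Cnih4 (0.69), Pcp4l1 (0.63) and Cfap126 (0.60), and for Ifi205 the same 3 genes, with 0.64, 0.66 and 0.56. Over BXD lines, Mndal and Ifi205 were most like Pcp4l1 (0.82 and 0.78), and Ppox (0.73 and 0.72) was also among the first 3 for each. Igsf9 (0.74) completed the list for Mndal. Ifi202b differed, in that the genes most like it over BXD lines were Cd209c on chromosome 8 (0.92), Gm12345 (0.84) and Olfr1372-ps1 on chromosome 11 (0.81). None of these genes shared a 31-base word with Ifi202b.

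For Ifi203, Ifi204 and Ifi207 the most similar genes were on other chromosomes, and most are known as interferon-stimulated genes. Over all strains Ifi203 was most like Ifit3b (0.49), Phf11d (0.47) and Ifit2 (0.45). Ifi204 was most like Oasl1 (0.55), Oas2 (0.53) and Ifit3b (0.53), and Ifi207 like Oasl1 (0.51), Oas2 (0.49) and Ifit3 (0.46). Over BXD lines the values were higher. Ifi204 correlated with Herc6 (0.82), Ifit2 (0.82) and Zbp1 (0.81), Ifi207 with Ifit2 (0.73), Oasl1 (0.73) and Rassf4 (0.69), and Ifi203 with Slfn5 (0.78), Phf11d (0.74) and Ifit3 (0.70).

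The same division was seen against a list of 28 interferon-stimulated genes (ISGs). Over BXD lines the mean of the list correlated with Ifi204 (r = 0.81), Ifi207 (0.66) and Ifi203 (0.64), and with Ifi205 (0.29), Mndal (0.22) and Ifi202b (-0.04). Over all strains the values were 0.51, 0.45 and 0.38 for the first 3 genes and 0.17, 0.19 and -0.14 for the others, so that Mndal then stood above Ifi205. The summed level of the list had a median of 264.3 CPM and reached 961.1 CPM, and all 28 genes differed among strains by the test above, against 72.9% of all genes. Macrophage markers were followed less closely. With the mean of 11 such genes, Ifi204 and Ifi207 each had r = 0.30 over all strains, and the other 4 members between -0.04 and 0.05. The summed macrophage level ranged from 38.6 to 500.3 CPM. Of 15 genes of DNA sensing and the inflammasome, 11 differed among strains, a share near the 72.9% of all genes.

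**Figure D4:**
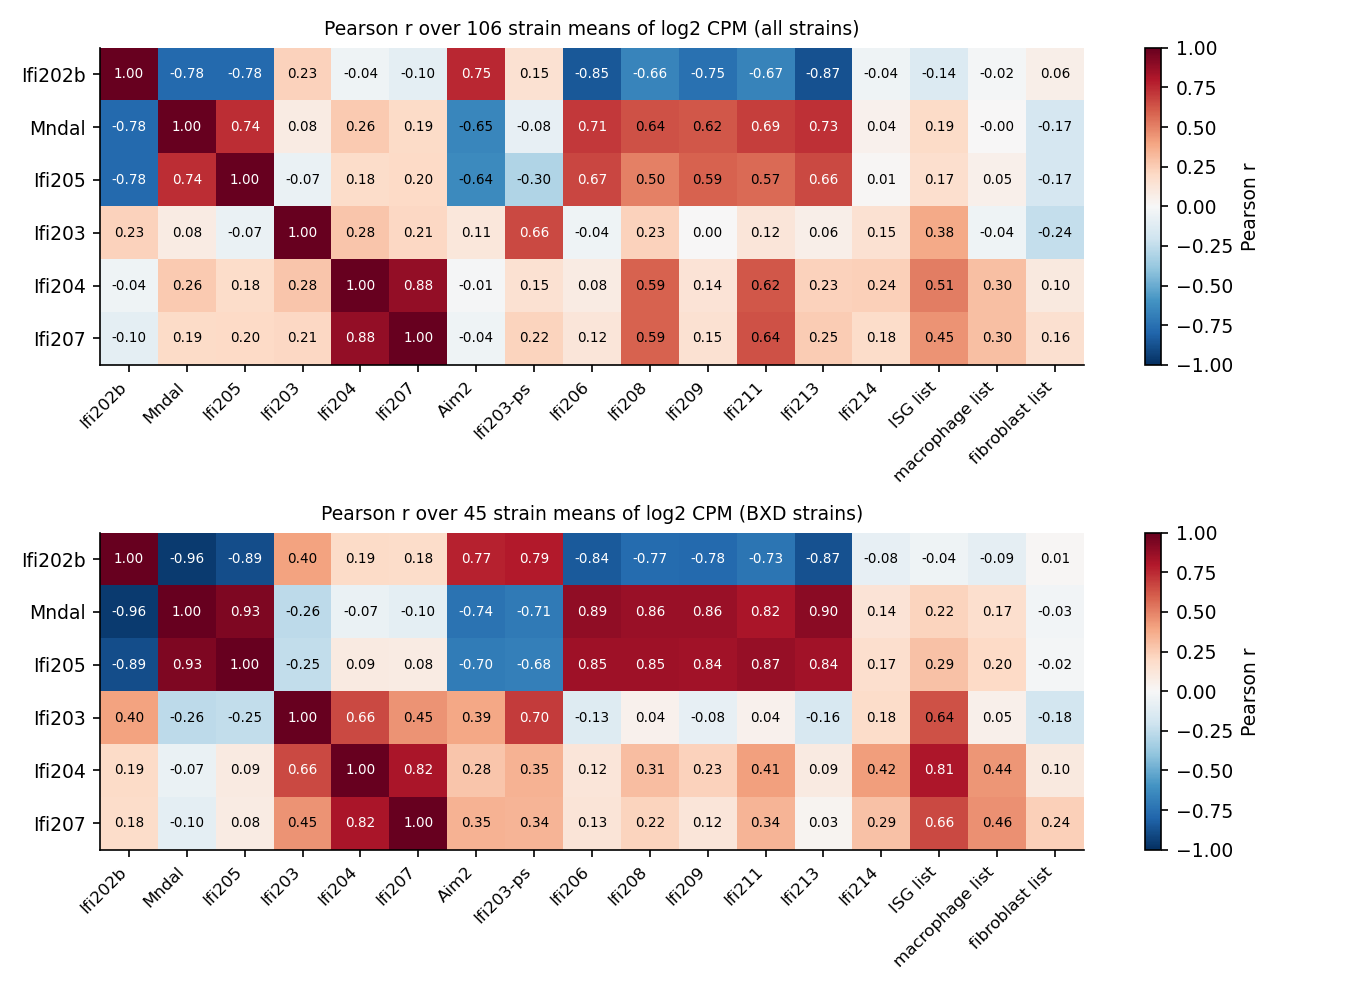
Pearson r of each of the 6 genes (rows) with the members, the other cluster genes and 3 marker lists (columns) over strain means of log2 CPM, for all strains (upper panel) and 45 BXD lines (lower panel). Ifi202b, Mndal and Ifi205 form a block of high absolute values with most cluster genes, and Ifi203, Ifi204 and Ifi207 have higher values with the ISG list than the other 3 members do, with Ifi204 and Ifi207 at 0.88 and 0.82 with each other.

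Sex was the comparison of this design that did not enter the choice by strain. Of the 6 genes, 1 differed between the sexes over all libraries, without pairing by strain, against 24.8% of all 15942 genes tested (13.2% higher in males and 11.6% higher in females). This was Ifi205, whose difference was known from an earlier look at these data. In males it ranged from 0.482 to 21.3 CPM (median 5.3), and in females from 0.139 to 15.1 CPM (median 2.13). The ranges overlapped across strains, and within a strain the male was higher in 74 of 78 strains. The log2 fold change of male over female was 1.06 ± 0.2 (SE; edgeR, adjusted p = 6.9e-06), a 2.08-fold difference. With strain as a block over the strains with both sexes, it was 1.26 ± 0.09 (SE; edgeR, adjusted p = 3.0e-20). Ifi203 also passed in that fit, where 31.7% of all genes did.

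The sex difference of Ifi205 was present in each family. The male was higher in 31 of 34 BXD strains, 13 of 13 AXB/BXA, 5 of 5 CXB, 2 of 2 BXH and 23 of 24 inbred strains. The median within a strain was 1.37 on the log2 scale, and by family it lay between 1.06 in BXH and 1.47 in CXB. The female was higher in BXD73/RwwJ, BXD60/RwwJ, NZW/LacJ and BXD85/RwwJ, with log2 differences of -0.22, -0.12, -0.11 and -0.07. The widest difference was in RIIIS/J, with 2.1 CPM in the male and 0.16 in the female (3.66). The RIIIS/J male is the library described above with 58.1% of the C57BL/6J level at genes low in its female. Without it, a fit chosen after the data had been seen, the log2 fold change of Ifi205 over all libraries was 1.07 ± 0.2 (SE; edgeR, adjusted p = 5.8e-06). The next widest differences were in NON/ShiLtJ (3.14) and KK/HlJ (3.01), each with a female below 0.6 CPM. MA/MyJ, with the highest level, had 15.4 CPM in males and 15.1 in the female. Whether the sex difference depends on the level was not tested.

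Ifi203 was lower in males in 56 of 78 strains, with 8.5 to 84.4 CPM in males (median 37.5) and 7.82 to 69.99 CPM in females (median 41.01). Its log2 fold change of -0.13 ± 0.05 (SE) missed the threshold (edgeR, adjusted p = 0.055). With strain as a block it passed, at -0.16 ± 0.03 (SE; edgeR, adjusted p = 1.1e-04), where 31.7% of all genes passed. The same strains without the block gave -0.17 ± 0.06 (SE; edgeR, adjusted p = 0.024), so that the change of call cannot be put down to the block alone. It also passed with library totals in place of TMM (adjusted p = 0.0022, edgeR) and in 4 further settings, and the call thus depends on the model.

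The other 4 members did not pass in either fit. Ifi202b was at medians of 2.27 CPM in males and 2.46 in females, with a log2 fold change of 0.15 ± 0.37 (SE; edgeR, adjusted p = 0.812). Mndal was at 13.7 and 13.2 CPM, with -0.15 ± 0.24 (SE; edgeR, adjusted p = 0.711). Ifi204 was at 4.83 and 4.68 CPM, and Ifi207 at 7.2 and 7.38 CPM, with log2 fold changes of 0.10 ± 0.08 and 0 ± 0.08 (SE). The number of strains with the higher male ranged from 30 of 78 for Mndal to 45 of 78 for Ifi204. Among the 8 other cluster genes 0 passed over all libraries by edgeR or DESeq2, and 1, Aim2, had an unadjusted p under 0.05 (p = 0.0467, adjusted p = 0.134). With strain as a block 4 of the 8 passed, beside 31.7% of all genes. Aim2 (-0.12 ± 0.04, SE; edgeR, adjusted p = 0.00878), Ifi208 (-0.21 ± 0.07, adjusted p = 0.0148) and Ifi203-ps (-0.10 ± 0.04, adjusted p = 0.0397) were higher in females. Ifi211, which shared 857 words with Ifi205, was higher in males (0.15 ± 0.06, SE; edgeR, adjusted p = 0.0416), and the part of shared reads in this was not tested.

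**Figure D5:**
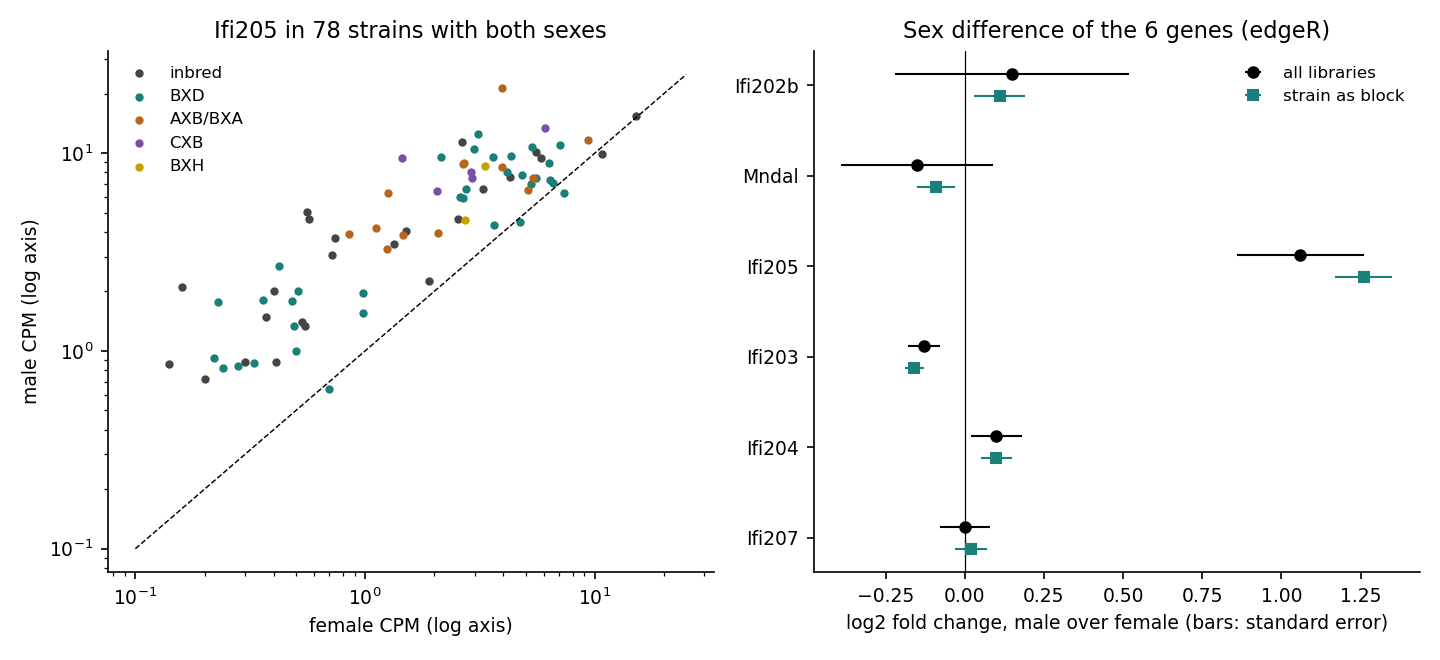
Left, mean Ifi205 CPM of males against females in 78 strains with both sexes, on log axes, coloured by family, with the line of equality dashed; 74 strains lie above it. Right, log2 fold change of male over female with standard error for the 6 genes, with all libraries (circles) and with strain as a block (squares); Ifi205 lies at 1.06 and 1.26 and the other genes between -0.16 and 0.15.

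Interferon-stimulated genes differed by sex in the other direction from Ifi205. Of the 28 ISGs, 17 were higher in females and none in males, beside 11.6% of all genes that were higher in females, and the median log2 fold change of the list was -0.22 against -0.007 over all genes tested. Ifit1, which binds foreign RNA, had a median of 3.77 CPM in males and 5.13 in females and a log2 fold change of -0.43 ± 0.11 (SE; edgeR, adjusted p = 0.00152). Ifit3 (-0.31) and Oasl2 (-0.30) were also higher in females. Of 15 DNA sensing and inflammasome genes, Samhd1 (-0.16), Cgas (-0.13) and Tbk1 (-0.07) were higher in females. With strain as a block 23 of the 28 ISGs and 6 of these 15 genes were higher in females, beside 15% of all genes. Of the 7 interferon receptor genes and kinases tested, Ifngr2 (0.12) was higher in males, as were 13.2% of all genes, so that this count is near the background.

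Of the cell type lists, that of fibroblast genes had the highest share called by edgeR over all libraries. Of 7 such genes 5 were higher in females, beside 11.6% of all genes, Lum the most (43.2 CPM in males and 64.2 in females, log2 fold change -0.48), and none was higher in males. The summed fibroblast level ranged from 442.9 to 1368.1 CPM in males and from 366.0 to 1850.1 in females. Of 11 macrophage genes 0 passed by edgeR or DESeq2 and 0 had an unadjusted p under 0.05, and their summed level had medians of 207.5 CPM in males and 209.1 in females. Of 4 B cell genes 0 passed by either tool and 0 had an unadjusted p under 0.05, and 1 of 4 T cell genes, Cd3g, was higher in females (-0.40). Of 5 cardiomyocyte genes Myh6 (-0.11), and of 4 endothelial genes Tek (-0.17), were higher in females. With 24.8% of all genes called, 1 of 4 or 5 genes is near the background. Of 3 adipose genes tested, 0 passed by edgeR over all libraries and 0 had an unadjusted p under 0.05, whereas all 3 were higher in females by DESeq2 and 2 with strain as a block in edgeR. Of all genes, DESeq2 called 25.2% in either direction, and the block called 15% higher in females. Adipoq, an adipocyte hormone, had medians of 0.63 CPM in males and 1.3 in females, with log2 fold changes of -0.42 by edgeR (adjusted p = 0.258) and -0.88 by DESeq2 (adjusted p = 0.00139). The summed adipose level ranged from 0.4 to 237.1 CPM in males and from 0.4 to 51.5 in females. With the means of the macrophage and fibroblast genes as covariates, the log2 fold change of Ifi205 was 0.99 ± 0.21 (SE; edgeR, adjusted p = 5.8e-05) and that of Ifi203 was -0.19 ± 0.05 (SE; edgeR, adjusted p = 0.00307).

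The blood and neutrophil markers that passed the test, 1 of each list, were higher in males, as were 13.2% of all genes, and in lists so short 1 gene cannot be told from that background. Of 5 blood genes Hbb-bs, a beta globin, was higher in males, with medians of 1281 CPM in males and 988.4 in females (log2 fold change 0.45 ± 0.16, SE; edgeR, adjusted p = 0.0309). The unadjusted p was under 0.05 for 4 of the 5, and the median of the list was 0.38. In the strains with both sexes 0 of the 5 passed in edgeR, with or without strain as a block. The summed blood level ranged from 751.5 to 24342 CPM in males and from 364.6 to 26446.3 in females. Of 3 neutrophil genes tested Csf3r, the receptor of a granulocyte growth factor, was higher in males (0.26 ± 0.09, SE; edgeR, adjusted p = 0.0339), and the median of the list was 0.22. The summed neutrophil level ranged from 0.9 to 17.3 CPM in males and from 0.7 to 11.4 in females. With the means of the blood and neutrophil genes as covariates, a fit chosen after the data had been seen, the log2 fold change of Ifi205 was 0.97 ± 0.2 (SE; edgeR, adjusted p = 5.0e-05) and that of Ifi203 was -0.10 ± 0.05 (SE; edgeR, adjusted p = 0.171). The part of these cells in the sex difference of the members was not tested beyond these 2 fits.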

How the data were processed

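Hearts of 187 mice were profiled by mRNA sequencing. The authors estimated transcript abundance with kallisto (0.46 per the labels) against Ensembl transcripts of GRCm38 and deposited gene tables of estimated counts and of TPM. Estimated counts were rounded and scaled to CPM by TMM. Sex was tested over 15942 genes that passed filterByExpr with the quasi-likelihood F test of edgeR 4.0.16 and Benjamini-Hochberg adjustment (threshold 0.05), over all libraries and with strain as a block. Strain was tested in a model with sex. Fits with strain terms used 1 common dispersion estimated from the 300 most abundant genes. limma 3.58.1 and DESeq2 1.42.0 gave alternatives. The fits were also run on simulated data, with outcomes not given here. Male and female of the same strain deviated together in 78 of 78 strains (median r = 0.55, 0.17 to 0.70), so strain pairs the sexes. Log2 CPM used a prior count of 0.5. Poisson intervals cover counting error only. Transcripts and coordinates came from GENCODE M21 (GRCm38), which may differ slightly from the annotation the authors used. Named genes were the 6 members, up to 4 genes of each list with the largest sex difference past the threshold, and the 3 genes most correlated with each member; some genes that these rules name are not reported here. The members and lists were chosen with earlier results of these data known.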

Additional observations from a re-analysis of the deposited data

How the results depend on the processing

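Ifi205 was higher in males in all 16 alternative fits. Ifi203, which missed the threshold, passed it with library totals (log2 fold change -0.21), with limma on log2(TPM + 1) (-0.26) and log2(TPM + 0.1) (-0.27), with strain as a replicate block (-0.16), in strains with both sexes without the block (-0.17), with family as a covariate (-0.13) and with macrophage and fibroblast means as covariates (-0.19). The strains with both sexes thus gave the call of Ifi203 with and without the block, and the block changed no other member's call. Adding the block within the strains with both sexes moved the genes called from 3215 to 5047 of all 15942. In the same strains it moved them from 0 to 4 of 8 other cluster genes and 3 to 6 of 15 DNA sensing genes. It moved them from 17 to 23 of 28 ISGs and 4 to 5 of 7 fibroblast genes. For T cell genes it was 1 to 2 of 4, and for adipose genes 0 to 2 of 3. The blood gene called over all libraries was lost in the strains with both sexes, with and without the block. Over all genes, 3954 differed by sex, against 7081 with limma on log2(TPM + 1) and 6930 with log2(TPM + 0.1). Library totals gave 452 genes higher in males and 5409 higher in females, where TMM gave 2097 and 1857, and log2(TPM + 0.1) moved the median of all genes to -0.121. In TPM, the log2 ratio of DBA/2J over C57BL/6J became 0.77 for Ifi203, 0.77 for Ifi204, 0.50 for Ifi207 and -1.77 for Mndal, and that of NZB/BlNJ became 0.10 for Ifi203 and -2.38 for Mndal. The cause was not tested. A midpoint on the linear scale placed 17 BXD lines with DBA/2J for Ifi202b, with 13 lines in the middle part of the range, and 26 for Ifi205. In AXB/BXA it turned the 12 to 8 split of Ifi205 to 9 to 11, as did subtracting the mean of each sex. Merging AXB19, AXB19a and AXB19b into 1 line gave 9 lines on each side for Ifi202b and Mndal, but AXB19a was off for Ifi202b and high for Mndal and the other two were on and low, so that the merged line averages opposite states. Leaving out the library labelled A/J male, the BXD73/RwwJ female or the RIIIS/J male, or adding blood and neutrophil means as covariates, all chosen after the data had been seen, changed no member's sex call. In the placing of lines, leaving out the A/J male left a single A/J female and let Ifi204 and Ifi207 meet the rule in AXB/BXA. Each sex of a strain is nearly always 1 mouse, which limits every within-strain value.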
